A study of Mus musculus with 6 samples.

Results

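Chemokines and their receptors were examined in mouse regulatory T (Treg) cells that had differentiated in culture with or without sorafenib (Sora), a multikinase inhibitor given in liver cancer. Members were the rows of the count table whose gene symbol begins with Ccl, Cxcl, Ccr, Cxcr or Ackr and a digit, together with Xcl1, Xcr1, Cx3cl1 and Cx3cr1. The genes described number 51 of 22939, 31 ligands and 20 receptors, of which 14 ligands and 13 receptors passed the filter on low counts and were tested. Both groups came from naive CD4 T cells of C57BL/6J mice that carry a GFP reporter knocked into Foxp3. All were stimulated through CD3 and CD28 with TGF-β1 and antibodies to IFN-γ and IL-4, and GFP-positive cells were sorted for RNA. The labels name 3 control libraries (ctrl-Treg cells) and 3 Sora libraries (Sora-Treg cells). The Sora concentration used for these libraries and the age of the reporter mice were not given in the sources used here, and the cells were induced in a dish, not taken from a tumor.

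Chemokines are small secreted proteins that bind G protein-coupled receptors on leukocytes and direct where the cells move. On Treg cells, Ccr7 and Cxcr4 are known for traffic through lymphoid tissue and bone marrow, whereas Ccr4, Ccr6, Ccr8 and Cxcr3 are known for entry into inflamed tissue and tumors. Activated T cells also secrete chemokines themselves, chiefly Ccl3, Ccl4 and Ccl5.

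Library totals ranged from 30727686 to 37717324 counts. At these totals 3 counts correspond to 0.0795 to 0.0976 CPM (counts scaled to a common library total) before TMM scaling. The CPM of genes below are after TMM scaling. Foxp3, whose reporter was used for the sort, was at 269, 254 and 252 CPM in ctrl-Treg cells against 277, 268 and 271 CPM with Sora, and all 6 T cell markers were higher in Sora-Treg cells, with a summed level of 1761 to 1787 against 2434 to 2481 CPM. Myeloid transcripts were not evenly spread: the 13 listed myeloid genes summed to 232, 238 and 150.1 CPM in ctrl-Treg libraries 1, 2 and 3 and to 145 to 179 CPM in Sora-Treg cells, and 7 of the 12 tested were lower in Sora-Treg cells and 0 higher by edgeR (adjusted p under 0.05). For all such counts of markers, 29.7% of all tested genes were called higher and 29.9% lower. Lyz2, a lysozyme of macrophages and neutrophils, was at 47.5, 47.9 and 12.6 CPM in ctrl-Treg cells and 5.63, 21.2 and 4.66 CPM in Sora-Treg cells. Ctss, the largest part of the myeloid sum, was at 103, 111 and 103 CPM against 97.5, 107 and 98.9 CPM and was not called. Apoe (mean 26.4 against 25.1 CPM) and Cd68 (8.48 against 9.77 CPM) were not called either. Of the other lists, the Treg genes summed to 3276 to 3315 CPM in ctrl-Treg and 6029 to 6175 CPM in Sora-Treg libraries (5 of 7 higher, 1 lower), dendritic cell genes to 18.7 to 19.8 and 11.1 to 13.2 CPM (1 of 2 tested higher, 1 lower), B cell genes to 9.7 to 10.7 and 6.08 to 7.67 CPM (4 of 4 tested lower), CD8 T cell genes to 13.2 to 15.1 and 12.6 to 13.8 CPM (1 of 2 lower), platelet genes to 8.16 to 8.89 and 6.15 to 8.23 CPM (0 of 1 tested called), and stromal and endothelial genes to 12.2 to 15.3 and 39.1 to 42.5 CPM (Pecam1 higher and Col3a1 lower among 4 tested). Pecam1 made up the rise of the stromal and endothelial sum (mean 11.4 against 39.4 CPM), while Col1a1 was at 1.31 and 1.34 CPM. Most of the Treg sum was Il2ra (1933 against 3793 CPM) and Ctla4 (383 against 1107 CPM), while Nrp1 was lower and Ikzf2 not called. Among the T cell and Treg genes called higher, Cd4 (1.04-fold) and Foxp3 (1.05-fold) changed little. The part of the transcripts of all these lists in the results was not tested. In bulk samples, fewer cells of a type and less RNA per cell cannot be told apart. The labels do not say whether libraries came from separate cultures or animals, so the p-values measure the spread between these libraries, which may be technical.

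Most chemokine ligands that could be tested were lower in Sora-Treg cells, and most receptors were higher. Of the 14 ligands tested, 12 were lower and 1 was higher, where 29.9% of all tested genes were lower and 29.7% higher at an adjusted p under 0.05 in edgeR. Of the 13 receptors tested, 8 were higher and 4 lower. With a further requirement of a 2-fold difference, by which genes are here called differentially expressed (DEGs), 11 ligands were lower and 0 higher, and 4 receptors were higher and 3 lower. Over all tested genes 4.97% were DEGs lower in Sora-Treg cells and 6.30% DEGs higher. The median log2 fold change (Sora-Treg minus ctrl-Treg) was -1.79 over the 14 ligands and 0.81 over the 13 receptors, against 0 over all tested genes. These counts and medians, and the counts of genes without overlap, are affected by the filter. Ccl1, Cxcl2, Ccl9, Cxcl10 and Ccl6 passed it through their ctrl-Treg libraries alone and could hardly be called other than lower, and among the receptors Ccr9 passed through ctrl-Treg and Cxcr2 through Sora-Treg libraries alone, so the counts are no support for a difference from the background. The libraries of the groups did not overlap for 13 of the 14 ligands (12 with Sora-Treg cells below) and for 12 of the 13 receptors (8 with Sora-Treg cells above), whereas 32.0% of all tested genes had every Sora-Treg library below and 31.8% every Sora-Treg library above the ctrl-Treg libraries.

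**Figure D1:**
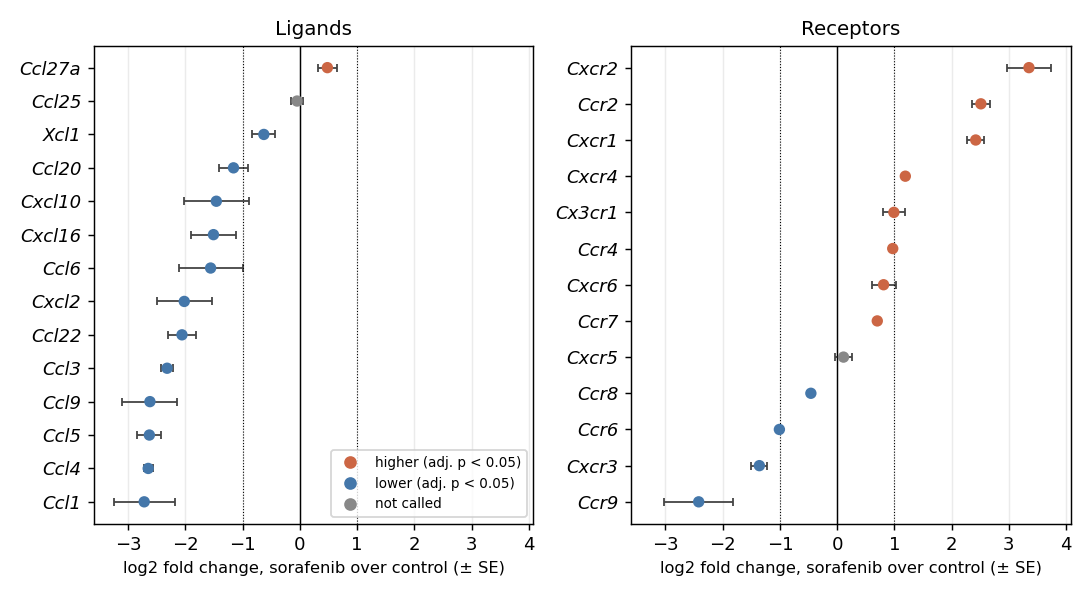
Log2 fold change of the 27 tested members in Sora-Treg against ctrl-Treg cells, with bars of ± 1 SE from edgeR on 3 libraries per group. Ligands lie below 0 except Ccl27a (0.48), and receptors above 0 except Ccr8, Ccr6, Cxcr3 and Ccr9.

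Ccl4, Ccl5 and Ccl3 were the 3 ligands of highest level per length in ctrl-Treg cells, and all fell. Ccl4, a chemokine of activated T cells and macrophages, was at 33.6, 32.1 and 32.7 CPM in ctrl-Treg cells and at 5.43, 4.86 and 5.34 CPM in Sora-Treg cells. Its mean fell 6.29-fold (32.8 ± 0.749 against 5.21 ± 0.307 CPM, SD, n = 3 each, log2 fold change -2.65 ± 0.08, SE, edgeR adjusted p = 6.05e-18). The groups lay far apart and the libraries of each hardly differed. Ccl3, which binds Ccr1, was at 15.9, 15.1 and 15.3 CPM in ctrl-Treg cells and at 2.9, 3.2 and 3.14 CPM in Sora-Treg cells (log2 fold change -2.32 ± 0.11, edgeR adjusted p = 1.13e-14). Both genes are annotated as overlapping one another and resemble each other in sequence, so reads may have been split between them. Ccl5, an attractant of T cells and monocytes, was at 16.7, 16.6 and 11.8 CPM in ctrl-Treg cells and at 1.42, 4.04 and 1.83 CPM in Sora-Treg cells (log2 fold change -2.63 ± 0.21, edgeR adjusted p = 3.11e-10). Its libraries varied more than those of Ccl3 and Ccl4, with ctrl-Treg library 3 the lowest of its group and Sora-Treg library 2 the highest of its own, and the groups stayed apart.

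Ccl22, Ccl1 and Ccl20, which bind Ccr4, Ccr8 and Ccr6, were also lower. Ccl22, a Ccr4 ligand known for recruiting Treg cells to tumors, was at 5.15, 4.45 and 4.1 CPM in ctrl-Treg cells and at 0.725, 0.784 and 1.71 CPM in Sora-Treg cells (log2 fold change -2.06 ± 0.25, edgeR adjusted p = 2.40e-07). Ccl1, the ligand of Ccr8, was counted 35, 38 and 17 times in ctrl-Treg libraries and 1, 5 and 6 times in Sora-Treg libraries (log2 fold change -2.72 ± 0.53, edgeR adjusted p = 1.18e-04). Its counts were low throughout, and no Sora-Treg library reached the lowest ctrl-Treg library. Ccl20, the chemokine ligand of Ccr6, which T helper 17 cells also make, was at 2.69, 2.58 and 3.1 CPM in ctrl-Treg cells and at 1.61, 0.972 and 1.15 CPM in Sora-Treg cells (log2 fold change -1.16 ± 0.25, edgeR adjusted p = 3.27e-04). The 3 Sora-Treg libraries all lay below the ctrl-Treg libraries.

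Ccl9, Cxcl2, Cxcl16, Cxcl10 and Ccl6, all at low counts, were called lower as well. Ccl9, of the same gene cluster as Ccl3 and Ccl4, was at 1.9, 2.58 and 0.595 CPM in ctrl-Treg cells and at 0.165, 0.376 and 0.281 CPM in Sora-Treg cells (log2 fold change -2.62 ± 0.48, edgeR adjusted p = 5.79e-05). Its ctrl-Treg library 3 was the low one, the same library in which Lyz2 was low. Cxcl2, a neutrophil attractant that binds Cxcr2, was at 0.812, 0.906 and 0.657 CPM in ctrl-Treg cells and at 0.198, 0.0627 and 0.309 CPM in Sora-Treg cells (log2 fold change -2.02 ± 0.48, edgeR adjusted p = 0.00103). Cxcl16, a membrane-bound ligand of Cxcr6, was at 1.5, 0.851 and 0.876 CPM in ctrl-Treg cells and at 0.395, 0.345 and 0.393 CPM in Sora-Treg cells (log2 fold change -1.51 ± 0.39, edgeR adjusted p = 0.00209). Neither gene overlapped between the groups. Cxcl10, an interferon-induced ligand of Cxcr3, was counted 12, 19 and 12 times in ctrl-Treg libraries and 2, 8 and 4 times in Sora-Treg libraries (log2 fold change -1.46 ± 0.57, edgeR adjusted p = 0.0325). Ccl6, known from macrophages, was counted 17, 15 and 11 times in ctrl-Treg libraries and 2, 6 and 5 times in Sora-Treg libraries (log2 fold change -1.56 ± 0.56, edgeR adjusted p = 0.0192). DESeq2 gave Cxcl10 and Ccl6 adjusted p of 0.102 and 0.0744. In edgeR the Cxcl10 call was lost without ctrl-Treg library 2 (log2 fold change -1.22) or 3 (-1.50), or without Sora-Treg library 1 (-1.14) or 3 (-1.30), and its value without Sora-Treg library 2 was -2.10. The Ccl6 call was lost without ctrl-Treg library 1 (-1.49) or 2 (-1.53), or without Sora-Treg library 1 (-1.26).

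Ctrl-Treg library 3 had the lowest myeloid sum of its group. With that library as the only control, the log2 fold change was -2.65 for Ccl4, -2.31 for Ccl3 and -2.27 for Ccl5. It was -1.91 for Ccl22, -1.32 for Ccl20, -2.09 for Ccl1, -0.65 for Xcl1 and 0.47 for Ccl27a. Cxcl2, Cxcl16, Cxcl10 and Ccl6 kept their direction. Over all alternative fits, this one included, Cxcl2 lay between -2.59 and -1.62 and Cxcl16 between -1.65 and -1.18. Likewise Cxcl10 lay between -2.1 and -1.14, and Ccl6 between -1.88 and -1.26. Ccl9 was at -1.10 in this fit, against -2.62 with all libraries. Fewer of all tested genes were called with 1 control, so a lost call there need not mean a changed effect. The ligands lost a larger part of their lower calls than all tested genes did. This fit, chosen after seeing the data, assumes that a single control library varies as the others do. Ccl9, Ccl6, Cxcl2, Ccl5, Ccl22, Ccl1 and Ccl25 were lowest of their group in ctrl-Treg library 3, as Lyz2 was, whereas Ccl20 was highest there. Ccl9, Ccl6, Ccl5, Ccl3, Cxcl10 and Xcl1 were highest of their group in Sora-Treg library 2, as Lyz2 was. Cxcl2, Ccl4, Cxcl16 and Ccl20 were instead lowest of theirs in Sora-Treg library 2. Ccl3 and Ccl4 in ctrl-Treg library 3 lay between their values in ctrl-Treg libraries 1 and 2. Adgre1, the macrophage marker F4/80, was at 23.8, 22.8 and 3.38 CPM in ctrl-Treg cells and at 4.35, 7.05 and 4.1 CPM in Sora-Treg cells. The part of myeloid transcripts in these ligand values was not tested.

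**Figure D2:**
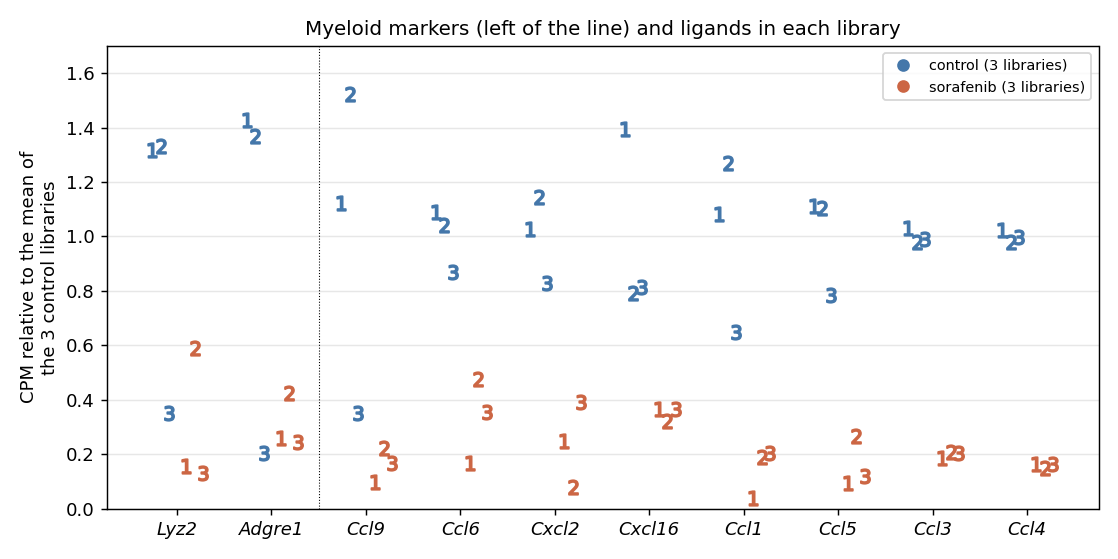
Level of 2 myeloid markers and 8 ligands in each library (numbers are replicate numbers), as CPM relative to the mean of the 3 ctrl-Treg libraries. Of the control libraries, library 3 was the lowest for Lyz2, Adgre1, Ccl9, Ccl6, Cxcl2, Ccl1 and Ccl5 (12.6, 3.38, 0.595, 0.344, 0.657, 0.532 and 11.8 CPM), and Ccl3 and Ccl4 there were at 15.3 and 32.7 CPM, between ctrl-Treg libraries 1 and 2.

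The other 3 tested ligands changed by less than 2-fold. Xcl1, a lymphotactin that attracts cross-presenting dendritic cells through Xcr1, was at 3.91, 4.12 and 4.07 CPM in ctrl-Treg cells and at 1.71, 3.04 and 3.0 CPM in Sora-Treg cells (log2 fold change -0.63 ± 0.20, edgeR adjusted p = 0.00833). Without Sora-Treg library 1, its log2 fold change was -0.41 (edgeR adjusted p = 0.0575). Ccl27a, a skin chemokine that binds Ccr10, was the one ligand called higher, at 4.14, 2.83 and 3.54 CPM in ctrl-Treg cells and at 5.2, 4.8 and 4.69 CPM in Sora-Treg cells (log2 fold change 0.48 ± 0.16, edgeR adjusted p = 0.0144). That call was lost without ctrl-Treg library 2 (log2 fold change 0.35, edgeR adjusted p = 0.0839), and Ccl27a overlaps Il11ra1, which rose too (log2 fold change 0.67 ± 0.11, edgeR adjusted p = 1.95e-05). Ccl25, the ligand of Ccr9, was at 7.41, 7.22 and 7.07 CPM in ctrl-Treg cells and at 6.39, 6.93 and 7.64 CPM in Sora-Treg cells, where the groups overlapped and the log2 fold change was -0.05 ± 0.11 (edgeR adjusted p = 0.731).

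Another 17 ligands stayed under the filter, none above 11 counts in a library, and were not tested. They include Cxcl12, the ligand of Cxcr4, and Ccl17, a second ligand of Ccr4. Cx3cl1, Cxcl3, Ccl2, Ccl7 and Cxcl14 exceeded 3 counts in at least 1 library, and Ccl8, Ccl12, Ccl17, Ccl21a, Ccl24, Ccl27b, Ccl28, Cxcl1, Cxcl5, Cxcl9, Cxcl12 and Cxcl15 did not.

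**Figure D3:**
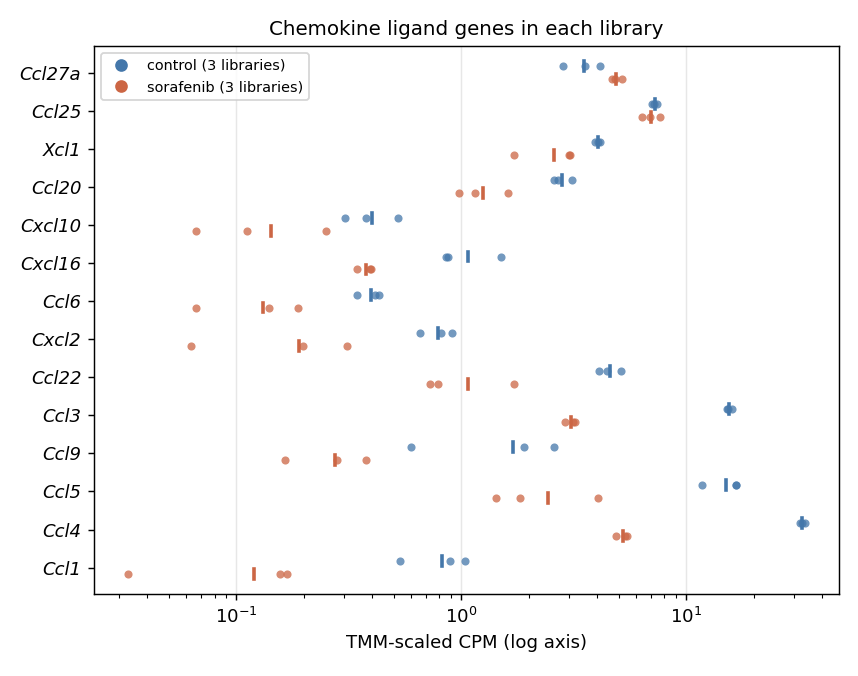
TMM-scaled CPM of the 14 tested ligands in each of the 6 libraries, ordered by log2 fold change (highest at the top), with a vertical mark at each group mean. Apart from Ccl25, the libraries of the 2 groups did not overlap.

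The ligand promoters were read from RefSeq (build GRCm38.p6). Of the 27 tested members, 22 had an entry, and the 5 without one were Ccl4, Ccl5, Ccr7, Cxcl16 and Cxcr5. The letters GGG, any 2 bases and TTTCC, a form of the NF-kB site, were searched on both strands from 250 bases before to 50 bases after each start. They were present in 3 of the 22 members, the ligands Ccl20, Cxcl2 and Ccl9, and in 1.63% of 32851 promoters. Here and below, members were counted by gene, with any of its starts, whereas the share over all was counted by promoter entry. All 3 ligands were lower in Sora-Treg cells. Cxcl2 and Ccl9 passed the filter through ctrl-Treg libraries alone, so their shared direction is no support for a link to these letters. The letters TGANTCA of AP-1 occurred in 4 of the 22 (Ccl9, Cxcl10, Ccl27a and Ccr4) and in 7.81% of all promoters, the STAT5 letters TTCNNNGAA in 1 of the 22 (Ccr6) and in 8.30%, and the letters of FOXO (TGTTTAC, 3.65% of all) and SMAD (GTCTAGAC, 0.213% of all) in 0 of the 22. These are matches of letters in the reference, not measured binding. Matched letters are in capitals below (in Ccl9 the AP-1 letters too). The 250 bases before the start are shown for the 3 ligands with the NF-kB letters. They are Ccl20 at chr1:83116516-83116765 on the plus strand, with the first matched base 80 bases before the start, Cxcl2 at chr5:90903649-90903898 on the plus strand, with matches 97 and 78 bases before, and Ccl9 at chr11:83578637-83578886 on the minus strand, with AP-1 letters 53 and NF-kB letters 35 bases before.
Ccl20: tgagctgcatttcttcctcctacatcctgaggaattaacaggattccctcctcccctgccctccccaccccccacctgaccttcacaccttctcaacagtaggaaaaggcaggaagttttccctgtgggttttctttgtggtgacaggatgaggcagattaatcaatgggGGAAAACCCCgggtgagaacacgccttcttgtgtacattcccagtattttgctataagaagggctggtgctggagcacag
Cxcl2: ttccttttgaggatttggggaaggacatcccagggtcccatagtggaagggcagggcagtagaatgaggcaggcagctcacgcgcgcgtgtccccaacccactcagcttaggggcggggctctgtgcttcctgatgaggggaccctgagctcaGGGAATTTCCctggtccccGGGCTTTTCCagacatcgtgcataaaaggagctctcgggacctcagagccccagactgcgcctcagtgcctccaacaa
Ccl9: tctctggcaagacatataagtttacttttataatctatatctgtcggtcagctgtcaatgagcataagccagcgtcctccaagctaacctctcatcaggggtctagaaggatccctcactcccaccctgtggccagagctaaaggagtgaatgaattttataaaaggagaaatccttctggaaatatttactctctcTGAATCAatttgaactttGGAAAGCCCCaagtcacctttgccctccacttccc

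Cxcr2, Ccr2 and Cxcr1 had the largest rises among the receptors described. Cxcr2, a neutrophil receptor for Cxcl1, Cxcl2 and their relatives, was counted 11, 6 and 5 times in ctrl-Treg libraries and 56, 56 and 96 times in Sora-Treg libraries (10.2-fold higher, log2 fold change 3.35 ± 0.38, edgeR adjusted p = 8.59e-08). Every Sora-Treg library was several times any ctrl-Treg library. Cxcr1, its neighbor on the chromosome and likewise best known from neutrophils, was at 1.55, 1.46 and 1.66 CPM in ctrl-Treg cells and at 8.1, 8.31 and 8.56 CPM in Sora-Treg cells (log2 fold change 2.42 ± 0.15, edgeR adjusted p = 2.85e-12). No neutrophil marker could be tested, and those in the table summed to 0.0626 to 0.494 CPM in ctrl-Treg cells and to 0.263 to 0.627 CPM in Sora-Treg cells. S100a8, a defining neutrophil transcript, was at 0 in every library but ctrl-Treg library 2 (0.0824 CPM). Ly6g, another, was counted 0, 1 and 0 times in ctrl-Treg libraries and 6, 11 and 11 times in Sora-Treg libraries. Csf3r had the lower mean in Sora-Treg cells, counted 15, 13 and 0 times against 1, 6 and 0 times. S100a9 and Mpo reached at most 1 and 4 counts in a library. The part of neutrophil transcripts in the Cxcr1 and Cxcr2 values was not tested. Ccr2, a receptor for Ccl2 known from monocytes and effector Treg cells, was at 1.47, 2.09 and 1.28 CPM in ctrl-Treg cells and at 9.39, 9.09 and 9.29 CPM in Sora-Treg cells (log2 fold change 2.51 ± 0.16, edgeR adjusted p = 4.93e-12). Of the 12 tested myeloid markers 7 were called lower, where 29.9% of all tested genes were lower. The part of myeloid transcripts in the Ccr2, Cxcr1 and Cxcr2 values was not tested.

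Another 5 receptors, Ccr7, Cxcr4, Ccr4, Cx3cr1 and Cxcr6, rose by smaller folds. Ccr7, which takes T cells into lymph nodes, was at 509, 513 and 514 CPM in ctrl-Treg cells and at 847, 815 and 826 CPM in Sora-Treg cells (log2 fold change 0.70 ± 0.02, edgeR adjusted p = 1.13e-16). Cxcr4, the receptor of Cxcl12, was at 45.9, 47.0 and 49.7 CPM in ctrl-Treg cells and at 109.8, 107 and 108 CPM in Sora-Treg cells (log2 fold change 1.19 ± 0.04, edgeR adjusted p = 5.75e-17). Both receptors separated the groups without overlap. Ccr4, which binds Ccl22 and Ccl17 and is found on skin-homing and tumor Treg cells, was at 89.3, 90.2 and 88.5 CPM in ctrl-Treg cells and at 172, 174 and 179.8 CPM in Sora-Treg cells (log2 fold change 0.97 ± 0.03, edgeR adjusted p = 6.44e-17). Its change lay just below the 2-fold limit. Cx3cr1, the fractalkine receptor, was at 1.93, 1.76 and 2.03 CPM in ctrl-Treg cells and at 3.43, 3.76 and 4.13 CPM in Sora-Treg cells (log2 fold change 0.99 ± 0.19, edgeR adjusted p = 1.13e-04). Cxcr6, which binds Cxcl16, was at 1.95, 2.06 and 1.82 CPM in ctrl-Treg cells and at 3.72, 3.89 and 2.67 CPM in Sora-Treg cells (log2 fold change 0.81 ± 0.21, edgeR adjusted p = 0.00179). Of the last 2, Cx3cr1 overlaps the weak gene Gm33858, which was higher too (at most 1.01 CPM in a library).

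Receptors for Ccl20 and for Ccl1 fell, as did Cxcr3. Ccr6, the Ccl20 receptor of T helper 17 and gut Treg cells, was at 104, 108 and 111 CPM in ctrl-Treg cells and at 51.0, 53.2 and 56.7 CPM in Sora-Treg cells (log2 fold change -1.01 ± 0.04, edgeR adjusted p = 3.54e-15). Ccr8, a marker of tumor-infiltrating Treg cells, was at 85.4, 81.5 and 88.2 CPM in ctrl-Treg cells and at 60.8, 59.0 and 65.1 CPM in Sora-Treg cells (log2 fold change -0.46 ± 0.04, edgeR adjusted p = 5.46e-09). The change of Ccr6 lay at the 2-fold limit, between -1.05 and -0.97 with a library left out. Cxcr3, the receptor of Cxcl9 and Cxcl10 on T helper 1-like cells, was at 11.3, 11.6 and 14.3 CPM in ctrl-Treg cells and at 5.5, 3.61 and 5.28 CPM in Sora-Treg cells (log2 fold change -1.36 ± 0.14, edgeR adjusted p = 9.54e-09). Ccr9, the gut-homing receptor of Ccl25, was counted 24, 13 and 29 times in ctrl-Treg libraries and 3, 7 and 1 times in Sora-Treg libraries (log2 fold change -2.42 ± 0.60, edgeR adjusted p = 0.00138). Leaving out Sora-Treg library 2 gave -3.27. Cxcr5, which leads cells to B cell follicles, was at 6.04, 4.7 and 5.98 CPM in ctrl-Treg cells and at 6.62, 6.11 and 5.28 CPM in Sora-Treg cells, with overlap between the groups (log2 fold change 0.11 ± 0.14, edgeR adjusted p = 0.532).

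The promoters of Ccr4 and Ccr6 are printed as examples of a receptor that rose and one that fell, with the AP-1 letters of Ccr4 and the STAT5 letters of Ccr6 in capitals. They are Ccr4 at chr9:114496545-114496794 on the minus strand, with the AP-1 letters 143 bases before the start, and the first of the Ccr6 starts at chr17:8235793-8236042 on the plus strand, with STAT5 letters 157 and 120 bases before.
Ccr4: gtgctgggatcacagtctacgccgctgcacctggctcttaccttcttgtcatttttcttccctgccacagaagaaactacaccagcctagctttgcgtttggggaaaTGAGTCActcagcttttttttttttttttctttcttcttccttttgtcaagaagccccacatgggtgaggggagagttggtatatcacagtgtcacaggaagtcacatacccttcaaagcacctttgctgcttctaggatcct
Ccr6: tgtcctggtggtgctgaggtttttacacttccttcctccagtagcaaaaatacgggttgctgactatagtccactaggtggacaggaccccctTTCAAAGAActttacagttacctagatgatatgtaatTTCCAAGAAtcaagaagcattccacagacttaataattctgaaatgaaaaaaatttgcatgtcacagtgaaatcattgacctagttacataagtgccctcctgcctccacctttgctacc

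A further 7 receptors stayed under the filter, none above 15 counts in a library. Ccr1, another receptor for Ccl3 and Ccl5, was counted 3, 6 and 3 times in ctrl-Treg libraries and 8, 9 and 15 times in Sora-Treg libraries, the groups not overlapping. Ccr3 was counted 2, 5 and 1 times against 4, 7 and 9 times. Ccr10, the Ccl27a receptor, whose gene overlaps Cntnap1, was counted 0, 0 and 2 times against 1, 4 and 0 times. Ackr4 was counted 5 times in ctrl-Treg library 1 and 0 times in the other libraries, and Ackr2, Ackr3 and Xcr1 reached at most 3 counts in any library. Ccl19 and Cxcl13 were not analysed here.

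**Figure D4:**
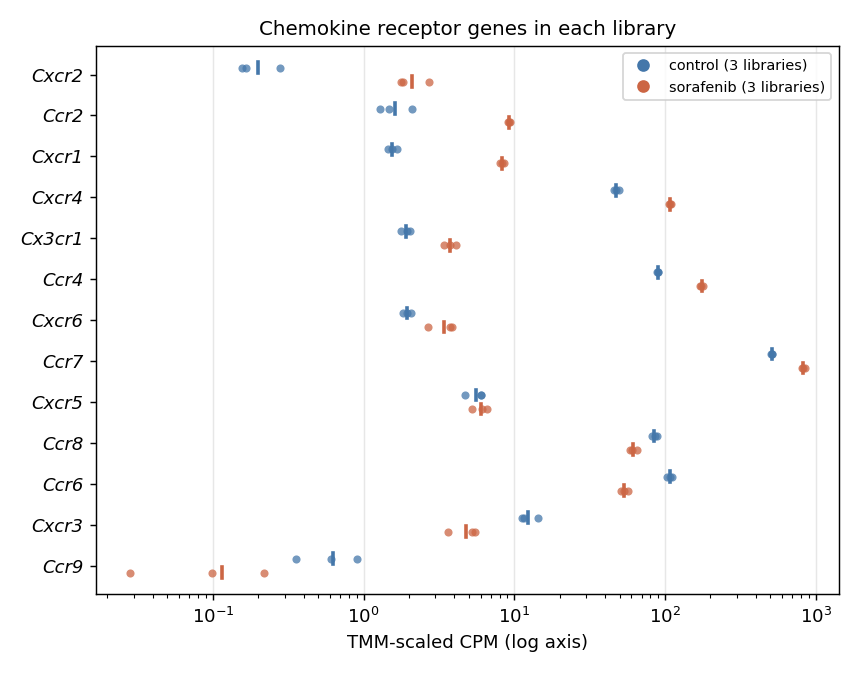
TMM-scaled CPM of the 13 tested receptors in each of the 6 libraries, ordered by log2 fold change (highest at the top), with a vertical mark at each group mean. Apart from Cxcr5, the libraries of the 2 groups did not overlap, with Cxcr2 the farthest apart (10.2-fold).

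Levels between genes were compared per length, on the FPKM scale. Ccr7 was the highest receptor in both groups, at 269.8 ± 0.819 FPKM (SD, n = 3) in ctrl-Treg cells and 404 ± 8.75 FPKM in Sora-Treg cells, followed by Ccr8 at 76.6 ± 3.11 and 51.2 ± 2.58 FPKM. Ccr6 came next in ctrl-Treg cells (26.5 ± 0.762 FPKM) and fell to 12.1 ± 0.631 FPKM in Sora-Treg cells, where Ccr4 (41.7 ± 0.916 FPKM) and Cxcr4 (36.2 ± 0.571 FPKM) stood above it. From Ccr7 to Cxcr5 in ctrl-Treg cells, and from Ccr7 to Cxcr1 in Sora-Treg cells, each receptor was above the next in every library. In Sora-Treg cells Cxcr3 (2.86 ± 0.622 FPKM) overlapped Cxcr5 (2.19 ± 0.249 FPKM), and Ccr2 (1.88 ± 0.0336 FPKM) overlapped Cxcr6 (1.74 ± 0.336 FPKM). The receptor rise was spread unevenly: summed FPKM over the receptors went from 427 ± 5.55 to 561 ± 10.3, and the Ccr7 share of it was 63.2% without and 71.9% with Sora. The Ccr8 share was 17.9% and 9.13%.

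The summed FPKM of the ligands was 126 ± 7.56 without Sora and 29.6 ± 2.94 with Sora, 4.27-fold lower. Ccl4 had the highest mean in both groups, at 51.7 ± 1.35 and 7.58 ± 0.458 FPKM, which was 41.0% and 25.7% of the ligand sum. In ctrl-Treg cells Ccl4 was followed in order by Ccl5 (29.4 ± 5.52 FPKM), Ccl3 (20.4 ± 0.609 FPKM) and Xcl1 (8.1 ± 0.195 FPKM), with no overlap between neighbors. In Sora-Treg library 2 Ccl5 (7.29 FPKM) stood above Ccl4 (7.06 FPKM), and in Sora-Treg cells Xcl1, Ccl5, Ccl3 and Ccl27a overlapped, at 4.8 ± 1.4, 4.38 ± 2.55, 3.75 and 3.58 FPKM.

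Several members are neighbors on the chromosome, and the genes beside them were read for that position alone. On chromosome 11, Ccl5, Ccl9, Ccl6, Ccl3 and Ccl4 follow each other in the RefSeq gene order and were all lower. Of these, Ccl9 and Ccl6 passed the filter through ctrl-Treg libraries alone, so their direction was largely set by the filter. Wfdc17, the gene after Ccl4, was lower as well (log2 fold change -1.92 ± 0.48, edgeR adjusted p = 0.00156). On the other side of this run, beyond the untested Heatr9, Taf15 had a log2 fold change of -0.26 ± 0.03. On chromosome 9, in the run from Cxcr6 to Ccr2, the tested members Cxcr6 and Ccr2 were higher, whereas Ccr9, which lies before the run beyond Fyco1, was lower, and Fyco1 itself had a log2 fold change of 0.02 ± 0.06. On chromosome 1 the neighbors Cxcr2 and Cxcr1 rose with Rufy4 beside them (log2 fold change 2.46 ± 0.29, edgeR adjusted p = 1.43e-07). Arpc2, on their other side, had a log2 fold change of 0.24 ± 0.03. Also on chromosome 9, Cx3cr1 and Ccr8 lie next to each other and went opposite ways. Cxcr6 overlaps Fyco1, and for such overlaps the counting of strand was not stated, so reads cannot be told apart.

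Ligands can be read beside their receptors. Ccr4 rose while Ccl22 fell, Cxcr6 rose while Cxcl16 fell and Cxcr2 rose while Cxcl2 fell. Ccr6 with Ccl20, Ccr8 with Ccl1 and Cxcr3 with Cxcl10 fell together. Ccr9 fell without a call for Ccl25. Ccr7, Cxcr4 and Ccr2 rose in cells where their ligands Ccl21a, Cxcl12 and Ccl2 were not tested. Ccl27a rose, and Xcl1 and Ccl3 fell, in cells where their receptors Ccr10, Xcr1 and Ccr1 were not tested. These are separate values for each gene, and no pair was tested as a pair. Cxcr2 passed the filter through Sora-Treg libraries alone, and Cxcl2, Ccl1, Cxcl10 and Ccr9 through ctrl-Treg libraries alone. The directions of these genes were therefore largely set by the filter.

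Genes that act downstream of chemokine receptors were mostly higher or not called. The list held 71 genes found in the table, of which 63 were tested, and 37 were higher, 11 lower and 15 not called, with a median log2 fold change of 0.14. With library totals in place of TMM, which shift the median of all genes by -0.12, 26 were higher and 17 lower. Over all tested genes 29.7% were higher and 29.9% lower. Of the 63, 4 were DEGs higher and 1 was a DEG lower, against 6.30% and 4.97% of all tested genes. Arrb1, a beta-arrestin that uncouples and internalizes chemokine receptors, was at 231, 232 and 231 CPM in ctrl-Treg cells and at 676, 697 and 699.6 CPM in Sora-Treg cells (log2 fold change 1.58 ± 0.03, edgeR adjusted p = 1.19e-22). Pik3cg, the PI3-kinase subunit activated by G protein beta-gamma, was at 48.0, 52.7 and 51.6 CPM against 123, 120.2 and 121 CPM (log2 fold change 1.26 ± 0.04, edgeR adjusted p = 1.98e-17). Tec, a kinase of the T cell receptor pathway, rose with a log2 fold change of 1.19 ± 0.05 (edgeR adjusted p = 2.21e-15), and Bcar1, an adhesion scaffold, with 1.65 ± 0.08 (edgeR adjusted p = 2.11e-14). Ccrl2, an atypical chemokine-binding receptor whose symbol falls outside the member rule, was at 7.31, 6.73 and 7.64 CPM against 3.75, 2.29 and 3.06 CPM (log2 fold change -1.25 ± 0.16, edgeR adjusted p = 3.96e-07).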

How the data were processed

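RNA was measured in 6 libraries, 3 control and 3 Sora, grouped by the treatment label. The deposited tables hold whole-number counts for each gene symbol and, for the same genes, FPKM values. Dividing each count by its FPKM and by the total of that library gave the same length for a gene in every library (largest relative difference 1.64e-06 over 15431 genes with counts in all libraries), so the FPKM are rescaled counts and were used to compare levels between genes. The study's methods name GRCm38 and Bowtie2, whereas the submitters' processing notes name GRCm39, fastp, HISAT2, HTSeq, R 3.2.0 and DESeq2, and the handling of strand was not given in the sources used here. Close relatives and overlapping genes may therefore share reads.

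Here counts were tested with edgeR 4.0.16 (R 4.3.3), quasi-likelihood, with TMM scaling, the filterByExpr filter (minimum count 10) and Benjamini-Hochberg adjustment over 13463 genes, two-sided. Called means adjusted p under 0.05, and a DEG also has a log2 fold change beyond 1. The SE of a log2 fold change comes from the F statistic. CPM are TMM-scaled, and values are mean ± SD over 3 libraries. The biological coefficient of variation was 4.29%. Exact permutation of 3 against 3 libraries cannot give p below 0.1, so none was used. Floors of 3 counts cover counting error only. Replicate pairs differed by more than sampling noise (chi-square per degree of freedom 3.36 to 5.91).

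Full values are given for DEGs, for the 5 ligands and 5 receptors of highest FPKM and for the main Treg receptors, and signaling genes are named if among the 5 DEGs of smallest adjusted p. The members, gene lists and rules were chosen with earlier results of these data known. A further gene that matches the member rule is not reported here. Promoters and gene order are those of RefSeq on GRCm38.p6. The procedure was tested on simulated data. Alternatives were other scalings, no filter and a stricter filter, DESeq2 1.42.0, a replicate block, and each library left out.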

Additional observations from a re-analysis of the deposited data

How the results depend on the processing

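Of the 27 tested members, 17 kept direction and call in all alternatives that tested them, and 8 receptors were called higher and 4 lower in each, except that a stricter filter left Ccr9 out and 3 lower. The 12 ligands lower became 6 with that filter (CPM of at least 1 in 3 libraries, which removes low genes), and 9 to 12 when each library was dropped in turn. With ctrl-Treg library 3 as the lone control, a larger part of the lower calls was lost among the ligands than among all tested genes. DEGs lower among ligands (11) became 5 with the stricter filter, and 9 to 11 on dropping each library. The 1 ligand higher became 0 with library totals alone and 0 to 1 with a library left out, with 1 at an unadjusted p under 0.05 each time. The ligand median (-1.79) was -1.61 with the stricter filter, -1.36 with the lone control and -1.97 to -1.69 with a library left out, and the receptor median (0.81) was 0.70 with library totals and 0.71 to 0.92 on dropping each library (0.71 without Sora-Treg library 2 and 0.92 without Sora-Treg library 3). Signaling genes lower (11) became 17 with library totals, and their DEGs lower (1) became 2 there and 1 to 2 with a library left out. Library totals shift the median of all genes by -0.12. Directions turned for members that were not called: Ccl25 (-0.12 to 0.013 with a library left out, above 0 without Sora-Treg library 1) and Cxcr5 (-0.01 with library totals, -0.0019 to 0.19 on dropping each library, below 0 without ctrl-Treg library 2). DESeq2 called 10 ligands lower. The same replicate number gave no pairing (correlations of deviations -0.0438, 0.0591 and 0.0299), and the replicate block kept 12 ligands lower, 1 higher and every member's call. Low counts limit Ccl1, Cxcl10, Ccl6, Cxcr2 and Ccr9.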
